A study of Mus musculus with 12 samples.

Results

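Small vessel fragments from the cerebellum were compared with those from the cerebrum in control mice. The comparison rests on 6 of the 12 arrays of the series, which are the 3 control cerebellar and 3 control cerebral arrays, chosen by their labels. The control animals were wildtype littermates of Notch3 knockout mice, on a C57BL/6 background and 2 months old, and both regions of each mouse were taken to carry the same replicate number. The other 6 arrays hold the same regions of 3 Notch3 knockout mice of the same strain and age. They entered the fit so that both genotypes share 1 estimate of the spread, and they give a second set of mice for the same region difference. The sources used here give neither the way the fragments were isolated nor the site of the Notch3 deletion. That a number marks a mouse is not stated in words either.

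Brain microvessels consist of endothelial cells joined by tight junctions, which form the blood-brain barrier, and of the mural cells around them: smooth muscle on arterioles and pericytes on capillaries. A shared basement membrane, fibroblasts along larger vessels and the end feet of astrocytes complete the vessel wall. The cerebellum and the cerebrum develop from different parts of the neural tube, and the vessels of each are embedded in neurons and glia that express different transcription factors, receptors and secreted proteins.

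Expression was measured per probe set on whole-genome expression arrays as log2 values. A gene was called when its adjusted p was under 0.05 in limma, with the mouse as a block and Benjamini-Hochberg adjustment over all 11716 genes tested. Differences are cerebellar minus cerebral on the log2 scale, with the standard error (SE) of the fit and n = 3 mice. The arrays carried the transcripts of brain endothelium at a high level: claudin 5 (Cldn5) stood at 14.82 to 14.91 and the glucose transporter Slc2a1 at 15.81 to 15.99 in the 6 arrays, where the median of all values in the table was 3.27. Arrays of 1 region correlated at 0.991 to 0.996 and arrays of different regions at 0.983 to 0.994 in the control mice. Because these are bulk samples, a higher proportion of a cell type and more RNA per cell cannot be told apart in any result below.

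Control mouse 3 stood apart in 3 respects, which were looked up after its values were seen. Its cerebral array held pituitary transcripts: growth hormone (Gh) was at 15.69 there and at 2.65 to 2.71 in the other 5 control arrays, and prolactin (Prl) was at 10.70 there against 2.59 to 2.62. Cga, the subunit shared by the pituitary glycoprotein hormones, was at 1.64, 5.91 and 11.32 in the cerebral arrays of mice 1, 2 and 3 and at 1.63 to 1.65 in the cerebellar arrays. Chromogranin A (Chga), a protein of hormone granules, was at 2.50, 8.72 and 9.18 in the same cerebral arrays and at 2.19 to 2.21 in cerebellum, so that cerebral array 2 carried it as well. Cga (-4.65, adjusted p = 0.133 in limma) and Chga (-4.60, adjusted p = 0.102 in limma) had the most negative differences of all genes tested, and neither was called. The luteinizing hormone subunit Lhb was at 1.33 to 1.35 and the pituitary transcription factor Pitx1 at 1.88 to 1.90 in all 12 arrays, cerebral array 3 included. Both were under the median of the table in every array and were not among the genes tested, so they cannot tell that array from the others. Xist, the RNA of the inactive X chromosome, was at 13.11 to 13.31 in both regions of control mice 1 and 2 and at 2.75 and 2.85 in mouse 3, and the Y-linked Eif2s3y was at 10.74 and 10.50 in mouse 3 against 3.03 to 3.11. Lipocalin 2 (Lcn2), an acute-phase protein, was at 13.90 and 13.75 in mouse 3, at 10.71 and 9.71 in mouse 2 and at 9.56 and 8.63 in mouse 1 (cerebral and cerebellar). The part of these transcripts in the other differences was not tested, and values without single mice are given beside many of the results.

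The 2 regions differed in 915 of 11716 genes (7.81%). Of these, 647 were higher in cerebellar vessels (5.52%) and 268 were lower (2.29%), and 171 of the higher and 28 of the lower genes differed more than 2-fold (1.7% of all genes together). The 3 cerebellar values lay entirely above or below the 3 cerebral values in 2456 genes (21.0%), of which 768 were also called. The median difference over all genes tested was -0.02. The count depended on single mice: it was 567 without control mouse 1, 420 without mouse 2 and 333 without mouse 3, and it was 268 when the pairing by mouse was left out of the fit. Without mice 1, 2 and 3 the higher genes numbered 457, 308 and 279 and the lower genes 110, 112 and 54.

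The chemokine Cxcl2, which draws in neutrophils, had the largest difference upward. It was at 2.62, 3.75 and 3.45 in the cerebral arrays of control mice 1, 2 and 3 and at 7.22, 7.07 and 7.27 in their cerebellar arrays, a rise of 3.91 (SE 0.25, adjusted p = 0.00142 in limma). The cerebellar arrays lay close together and far above the cerebral ones, 1 of which was at or under the table's median of 3.27. Fosb, a subunit of the AP-1 transcription factor that cells make within minutes of stimulation, was at 2.72, 2.73 and 3.27 in cerebral and at 6.96, 5.57 and 6.94 in cerebellar arrays. All 3 cerebral values were at or under the median of the table, so the rise (3.59, SE 0.24, adjusted p = 0.00178 in limma) is given as at least 9.34-fold, against that median. Dlk1, a membrane protein related to the Notch ligands, was at 3.23, 3.24 and 5.73 in cerebral and at 7.03, 6.94 and 7.50 in cerebellar arrays. Mouse 3 thus had a cerebral level well above those of the other mice, and its own rise was smaller (3.09 over the 3 mice, SE 0.37, adjusted p = 0.00586 in limma, at least 8.39-fold).

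The other genes at the top belong to several tissues. Fabp3, a fatty acid binding protein, was at 7.25, 6.88 and 6.22 in cerebral and at 9.46, 9.92 and 9.89 in cerebellar arrays (2.97, SE 0.24, adjusted p = 0.00208 in limma). Sema3b, a secreted semaphorin that guides axons and vessels, was at 6.61, 6.30 and 5.48 and then at 8.56, 9.31 and 8.77 (2.75, SE 0.25, adjusted p = 0.00269 in limma). In both genes mouse 3 had the lowest cerebral level and the widest gap. Mrap2, which modulates melanocortin receptors, rose by 2.98 and Esrrg, an orphan nuclear receptor, by 2.52. A2m, a secreted protease inhibitor, rose by 2.17 from 9.23, 8.26 and 8.29 to 10.71, 10.74 and 10.84. The glutamate receptor subunit Gria4, which is also on the Bergmann glia list below, rose by 2.55, the AMPA receptor auxiliary protein Frrs1l by 2.17, the secreted synaptic protein Lgi1 by 2.20 and the neutral amino acid transporter Slc6a15 by 2.30. Eno4, an enolase known from sperm, rose by 2.51, the chemokine Ccl3 by 2.27 and Nfkbid, an IkappaB protein of the nucleus, by 2.42 (at least 3.17-fold). Adjusted p values of the 15 lay between 0.0012 (Lgi1) and 0.0147 (Eno4) in limma. All 3 mice showed each rise, which the choice of genes without overlap required. Without control mouse 3 the calls of Eno4 (adjusted p = 0.102 in limma) and Slc6a15 (0.0539) were lost, and without mouse 2 that of Eno4 (0.0746).

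Dendrin (Ddn), a protein of dendrites in the forebrain, had the largest called difference downward. It was at 5.61, 6.26 and 8.06 in cerebral and at 2.96, 2.07 and 2.32 in cerebellar arrays, a fall of 4.19 (SE 0.55, adjusted p = 0.00729 in limma). All 3 cerebellar values were at or under 3.27, which makes it at least 10.3-fold lower in cerebellum, and the cerebral level was highest in mouse 3. Chst2, a sulfotransferase of cell-surface glycans, was at 7.42, 7.19 and 8.12 and then at 5.02, 4.36 and 4.34 (-3.00, SE 0.32, adjusted p = 0.00466 in limma). Upk1b, a tetraspanin first described in urothelium, was at 6.04, 4.80 and 5.36 in cerebral and at 3.65, 3.66 and 3.47 in cerebellar arrays (-1.81, SE 0.25, adjusted p = 0.00881 in limma). Its cerebellar values were nearly equal and its cerebral ones spread by more than 1 log2 unit. Neuritin (Nrn1), a membrane-anchored protein that promotes neurite growth, fell by 1.79 and neurocan (Ncan), a proteoglycan of the brain matrix, by 1.46. The fructose transporter Slc2a5 fell by 1.23 and the lectin Siglech by 1.34, which are both microglial in brain, and Bank1, an adaptor known from B cells, fell by 1.23. Without control mouse 3 the call of Upk1b was lost (adjusted p = 0.0677 in limma).

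Several of the 15 lowest genes rested on few arrays. Hpcal4, a neuronal calcium sensor, was at 4.23, 4.34 and 6.01 in cerebral arrays and at 2.61 to 2.66 in cerebellar ones (-2.23, at least 3.01-fold lower), and its call was lost with any 1 of the control mice left out (adjusted p = 0.0578, 0.0727 and 0.123 in limma). Alx1, a homeobox factor of head mesenchyme, was at 4.15, 6.00 and 4.36 in cerebrum and at 2.67 to 2.72 in cerebellum (-2.14, at least 2.97-fold lower), and it was not called without mouse 3 (adjusted p = 0.0601 in limma). Neuronatin (Nnat), an imprinted membrane protein of brain and endocrine cells, was at 6.58, 6.78 and 8.61 and then at 5.76, 5.59 and 6.51. Its cerebral level was highest in the array of mouse 3 that held the pituitary transcripts, its fall of 1.37 had an adjusted p of 0.0368 in limma, and this became 0.159 without that mouse and 0.107 without mouse 2. Gnao1, the Go alpha subunit of neurons, fell by 1.22 (at least 1.88-fold), the BMP antagonist Chrdl1 by 1.27, the natural killer cell receptor chain Klrd1 by 1.30 and the prostaglandin receptor Ptger3 by 1.34. Without control mouse 3 none of these 4 was called, with adjusted p from 0.125 to 0.138 in limma; the calls of Gnao1, Chrdl1 and Ptger3 were also lost without mouse 2, and those of Klrd1 and Ptger3 without mouse 1.

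**Figure D1:**
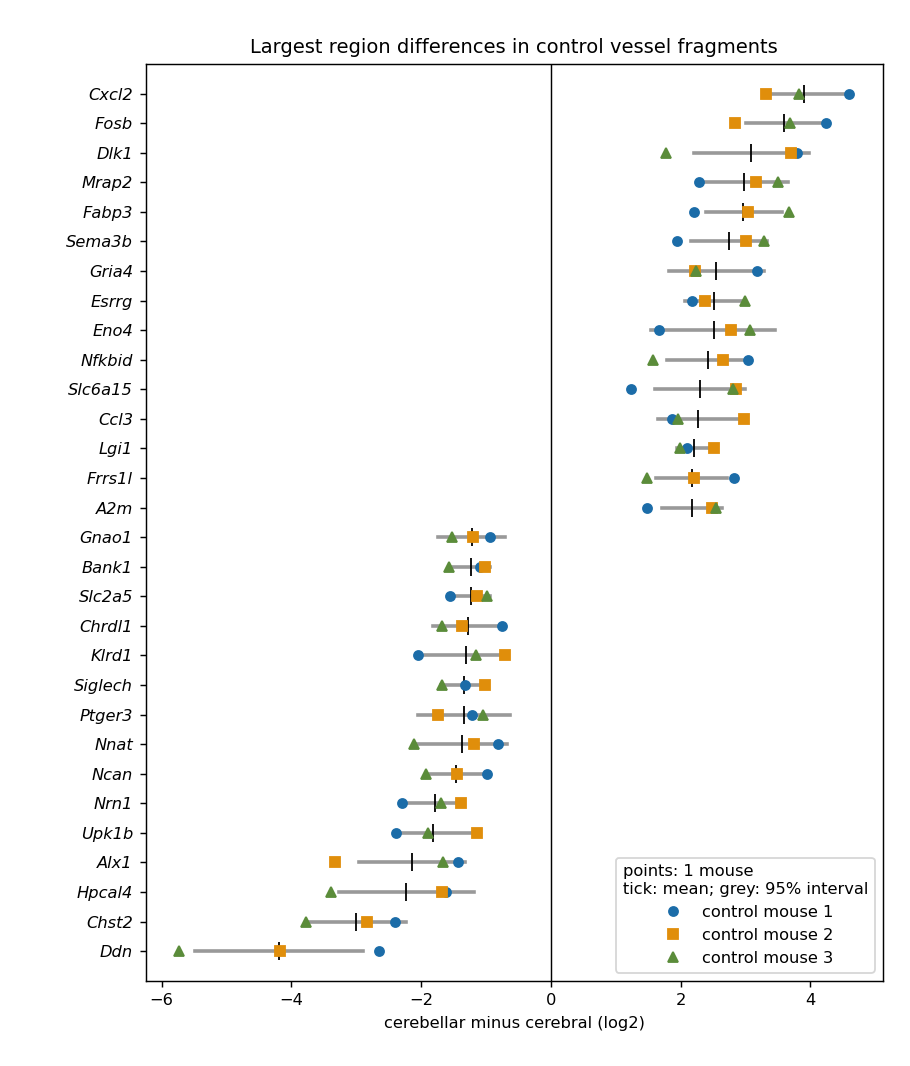
Cerebellar minus cerebral difference on the log2 scale for the 15 highest and 15 lowest called genes whose values do not overlap; points are the 3 control mice, ticks the mean and grey lines the 95% interval of the fit. Because genes with overlap were not chosen, all 3 mice must lie on 1 side of 0 for each gene. The spread between mice is wide for Ddn, Alx1 and Hpcal4.

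No endothelial marker was called. Of the 31 tested 0 passed in limma, where 7.81% of all genes did; 8 of 31 had an unadjusted p under 0.05, as did 2741 of all 11716 genes. The cerebellar values lay entirely below the cerebral ones in 10 of the 31 and entirely above in 1, beside 1175 (10%) and 1281 (10.9%) of all 11716 genes, and 28 had a 95% interval that lay within 0.5 log2 units of 0. Cldn5, the main tight junction protein, was at 14.86, 14.82 and 14.87 in cerebral and at 14.88, 14.84 and 14.91 in cerebellar arrays, a difference of 0.03 with a 95% interval from -0.11 to 0.17. The adhesion receptors Pecam1 (-0.17, 95% interval -0.40 to 0.07) and Cdh5 (-0.08, -0.29 to 0.13) were not called either. The list leaned slightly downward, with 25 of 31 members negative and a median of -0.08 beside -0.02 over all genes; the TGF-beta co-receptor endoglin (Eng) was furthest from 0 at -0.29 (adjusted p = 0.133 in limma).

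Of the 36 blood-brain barrier transport genes tested, 2 rose and 2 fell, shares of 5.56% each beside 5.52% and 2.29% of all genes. Slc2a1, the glucose transporter, differed by -0.04 (95% interval -0.17 to 0.10) and the efflux pump Abcb1a by 0.02 (-0.11 to 0.16). The level of Slc2a1 was near the highest value of the table (16.3) in both regions. The monocarboxylate transporter Slc16a1 was at 14.75, 14.59 and 14.79 in cerebral and at 14.42, 14.20 and 14.52 in cerebellar arrays, a fall of 0.33 (SE 0.06, adjusted p = 0.0253 in limma). The endocytic receptor Lrp1 rose by 0.55, the insulin receptor Insr rose by 0.33 and the scaffold protein Slc9a3r2 fell by 0.26. All 4 calls were lost when any 1 of the control mice was left out. Mfsd2a, the lysolipid transporter that restrains transcytosis, was at 12.94, 12.69 and 12.82 and then at 12.72, 12.53 and 12.09 (-0.37, SE 0.11, adjusted p = 0.112 in limma), and most of that gap came from mouse 3.

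Markers of the arterial and venous ends were counted apart. Of 23 arterial genes, only the gap junction protein Gja4 was called (0.45, adjusted p = 0.0328 in limma), or 4.35% beside 5.52% of all genes called higher. Its level rose from 11.39, 11.87 and 11.72 to 11.85, 12.08 and 12.41 in the 3 mice. Of 16 venous genes 1 rose (6.25%, beside 5.52% of all genes) and 2 fell (12.5%, beside 2.29%). The matrix protein Tgfbi was at 9.29, 9.43 and 9.88 and then at 10.03, 10.20 and 10.26 (0.63, SE 0.09, adjusted p = 0.0118 in limma). The chemokine-binding receptor Ackr1, a marker of venules, fell by 0.70 (adjusted p = 0.0191 in limma), from 9.64, 10.36 and 11.54 to 8.75, 9.44 and 11.25. The levels of the mice differed by more than the regions did, so the groups overlapped although each mouse showed the fall. The same held for Lcn2 (-0.69, adjusted p = 0.0452 in limma). The calls of Tgfbi, Ackr1 and Lcn2 were lost without mouse 1 (adjusted p = 0.0568, 0.0846 and 0.175 in limma) and without mouse 2 (0.063, 0.0862 and 0.175), and that of Gja4 without mouse 1 or mouse 3 (0.117 each).

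Wnt ligands and Norrin act through frizzled receptors on endothelial cells to build and keep the barrier. The median of the 30 genes of this pathway tested was -0.12. Of them, 2 rose (6.67%, beside 5.52% of all genes) and 2 fell (6.67%, beside 2.29%). All 4 encode secreted modulators. Sfrp1, which binds Wnt ligands, was at 6.99, 7.30 and 6.31 in cerebral and at 8.16, 8.95 and 8.19 in cerebellar arrays (1.56, SE 0.15, adjusted p = 0.00345 in limma). Its relative Sfrp2 rose by 1.12, with 2 of 3 cerebral arrays at or under 3.27 (at least 1.76-fold). Dkk3, of the dickkopf family, was at 6.68, 6.35 and 6.58 and fell to 5.49, 5.35 and 5.49 (-1.09, SE 0.21, adjusted p = 0.0253 in limma), a call that was lost with any 1 of the control mice left out. The Wnt enhancer Rspo3 fell by 0.56 (adjusted p = 0.0131 in limma), which was lost without mouse 1 (0.0603) and without mouse 3 (0.0828). The receptor Fzd4 differed by -0.13, its co-factor Tspan12 by -0.22, the ligand Wnt7a by 0.12 and the target Axin2 by -0.19, none of them called; these 4 were picked for their roles after their values were seen.

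Pericyte transcripts were higher in cerebellar vessels. Of 30 pericyte genes tested, 19 rose (63.3%, beside 5.52% of all genes), 0 fell and 11 were not called, and the median difference was 0.50. The 2 subunits of the pericyte potassium channel moved together. The sulfonylurea receptor Abcc9 was at 12.49, 12.41 and 12.32 in cerebral and at 13.38, 13.60 and 13.31 in cerebellar arrays (1.02, SE 0.07, adjusted p = 0.00187 in limma). The pore subunit Kcnj8 was at 10.51, 10.62 and 10.41 and then at 11.18, 11.52 and 11.37 (0.84, SE 0.08, adjusted p = 0.00294 in limma). Neither gene overlapped between regions. Pdgfrb, the receptor through which endothelial PDGF-B recruits mural cells, was at 13.85, 13.95 and 13.74 and rose to 14.19, 14.39 and 14.29 (0.44, SE 0.06, adjusted p = 0.00786 in limma). The mitochondrial proteins Ndufa4l2 and Higd1b rose by 0.81 and 0.67, the matrix protein Postn by 0.65, the proteoglycan Cspg4 by 0.62 and vitronectin (Vtn) by 0.40. Of the genes named here, Ndufa4l2 and Postn lost their calls without mouse 2 (adjusted p = 0.0597 and 0.0818 in limma) and without mouse 3 (0.0734 and 0.103).

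Some well-known mural markers were not called. Rgs5, a regulator of G protein signalling, was at 15.36, 15.39 and 15.38 and then at 15.44, 15.57 and 15.53, near the highest value of the table (16.3); the difference of 0.13 was not called (adjusted p = 0.186 in limma), and its 3 other probe sets differed by 0.14 to 0.51. Notch3, a receptor of mural cells, was at 11.32, 11.61 and 10.84 in cerebral and at 11.73, 12.02 and 11.78 in cerebellar control arrays, which did not overlap, but it was not called (0.59, SE 0.31, adjusted p = 0.312 in limma). That SE also draws on the arrays of mice in which Notch3 is the gene knocked out, and their part in this result was not tested. The mean level of the 30 genes rose by 0.34, 0.40 and 0.48 in control mice 1, 2 and 3. Without mice 1, 2 and 3 the number called was 15, 12 and 13, and without the pairing it was 11.

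Smooth muscle transcripts leaned upward. Of 41 tested, 34 had a positive difference, 11 rose (26.8%, beside 5.52% of all genes) and 0 fell, with a median of 0.27; without control mouse 1 the number was 6, without mouse 2 it was 9 and without mouse 3 it was 3, and without the pairing it was 4. The T-type calcium channel subunit Cacna1h was at 6.11, 6.26 and 6.14 and then at 7.52, 7.93 and 7.53 (1.49, SE 0.13, adjusted p = 0.00269 in limma). The calcium store protein Casq2 rose from 10.57, 10.69 and 10.65 to 11.37, 11.55 and 11.40 (0.80, SE 0.09, adjusted p = 0.00525 in limma). In both genes the mice agreed closely within each region. The L-type channel subunit Cacna1c and the nitric oxide receptor subunit Gucy1b1 each rose by 0.64, and Olfr558, an olfactory receptor family member of vascular muscle, by 0.96 (at least 1.78-fold). These 3 calls were lost without mouse 2 (adjusted p = 0.0533, 0.0595 and 0.063 in limma) and without mouse 3 (0.0721, 0.0749 and 0.159), and that of Olfr558 also without mouse 1 (0.113). Of the muscle markers named for their role, 3 were not called: smooth muscle actin (Acta2) differed by 0.10 (95% interval -0.04 to 0.24), Tagln by 0.20 (-0.16 to 0.55) and smooth muscle myosin (Myh11) by 0.45 (0.18 to 0.71, adjusted p = 0.0606 in limma).

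Fibroblast and matrix genes rose in part. Of 41 genes of perivascular and meningeal fibroblasts, 12 rose (29.3%, beside 5.52% of all genes) and 1 fell (2.44%, beside 2.29%). Their median was 0.26. The collagen-binding proteoglycan lumican (Lum) was at 6.15, 6.43 and 6.25 in cerebral and at 7.93, 8.19 and 7.82 in cerebellar arrays (1.71, SE 0.25, adjusted p = 0.0113 in limma). Decorin (Dcn), of the same family, rose by 1.16 and the PDGF receptor Pdgfra by 1.04. The fibrillar collagen Col1a1 (0.20) and Col3a1 (0.04) were not called, and Col6a3 was the member that fell (-0.74); these 3 were picked after their values were seen. The count was sensitive to single mice: 8, 2 and 4 genes were called higher without control mice 1, 2 and 3, and the calls of Lum, Dcn and Pdgfra were each lost without mouse 2 and without mouse 3.

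In the basement membrane, the sheet of laminin and collagen IV that both vascular cell types share, 6 of 29 genes rose and 0 fell. The share of 20.7% stands beside 5.52% of all genes, and 5 or 6 were called with any 1 control mouse left out. The laminin chains Lamb1 and Lama2 were higher. Lamb1 was at 9.54, 9.44 and 9.18 and then at 10.67, 10.87 and 10.69 (1.36, SE 0.08, adjusted p = 0.00142 in limma). Lama2 was at 8.68, 8.73 and 8.40 and then at 9.68, 9.89 and 9.33 (1.03, SE 0.08, adjusted p = 0.00205 in limma). Of the collagen IV chains, Col4a4 rose by 1.55 and Col4a3 by 0.79, a pair known from kidney and cochlea; Col4a4 was not called without mouse 2 (adjusted p = 0.0579 in limma) or mouse 3 (0.0761). The major vascular chains Col4a1 (0.00) and Col4a2 (0.03) were not called; both were picked after their values were seen. The laminin receptor subunit Itga7, of muscle and mural cells, rose by 0.70.

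Growth factor pathways that join endothelium and mural cells showed upward calls. Of 30 genes of PDGF, VEGF and angiopoietin signalling, 6 rose (20.0%, beside 5.52% of all genes) and 0 fell, although the median was -0.04. Among ligands, Pgf was at 7.57, 7.95 and 7.77 and then at 8.54, 8.74 and 8.93 (0.97, SE 0.10, adjusted p = 0.00365 in limma), Pdgfc rose by 0.57 (lost without mouse 2, adjusted p = 0.0536 in limma) and Vegfa by 0.76 (adjusted p = 0.0331 in limma, lost with any 1 control mouse left out). Of 35 genes of TGF-beta and BMP signalling, 8 rose (22.9%, beside 5.52% of all genes) and 0 fell, with a median of 0.05. Itgb8, an integrin subunit that activates latent TGF-beta, was at 10.38, 10.37 and 10.27 in cerebral and at 11.58, 11.97 and 11.91 in cerebellar arrays (1.48, SE 0.10, adjusted p = 0.00142 in limma). Ltbp3, which holds latent TGF-beta in the matrix, rose by 0.89. The ligands Bmp5, Bmp6 and Bmp7 rose by 0.70, 0.74 and 1.08, the last from cerebral values at or under 3.27 (at least 1.68-fold) and not called without mouse 3 (adjusted p = 0.056 in limma). The lists had 4, 3 and 4 and then 6, 6 and 5 genes called higher without control mice 1, 2 and 3. The Notch pathway had 1 gene up (Nrarp, 0.33) and 1 down (Mfng, -0.34) of 25, or 4% each beside 5.52% and 2.29% of all genes. Both calls were lost with any 1 control mouse left out.

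Of 39 guidance genes 5 rose (12.8%, beside 5.52% of all genes) and 1 fell (2.56%, beside 2.29%); without control mice 1, 2 and 3 the higher genes numbered 3, 2 and 3 and the lower ones 0, 1 and 0. Beside Sema3b, the repellent Slit2 was at 8.42, 8.39 and 7.58 and then at 9.73, 10.22 and 9.94 (1.83, SE 0.22, adjusted p = 0.00622 in limma), and the semaphorin receptor Plxnb1 rose by 0.58, which was not called without mouse 2 (adjusted p = 0.0581 in limma) or mouse 3 (0.0736). The cerebral level of Slit2 was lowest in mouse 3. Among 19 genes linked to cerebral cavernous malformations 3 rose (15.8%, beside 5.52% of all genes). They were the water channel Aqp1 (1.30), the proteoglycan Vcan (0.69) and the transcription factor Mef2c (0.27). Without control mice 1, 2 and 3 the count was 1, 0 and 0. Of 18 small vessel disease genes, Lamb1 rose (5.56%, beside 5.52% of all genes) and Ggps1, an enzyme of isoprenoid synthesis, fell by 0.35 (5.56%, beside 2.29%). The call of Ggps1 was lost with any 1 control mouse left out.

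**Figure D2:**
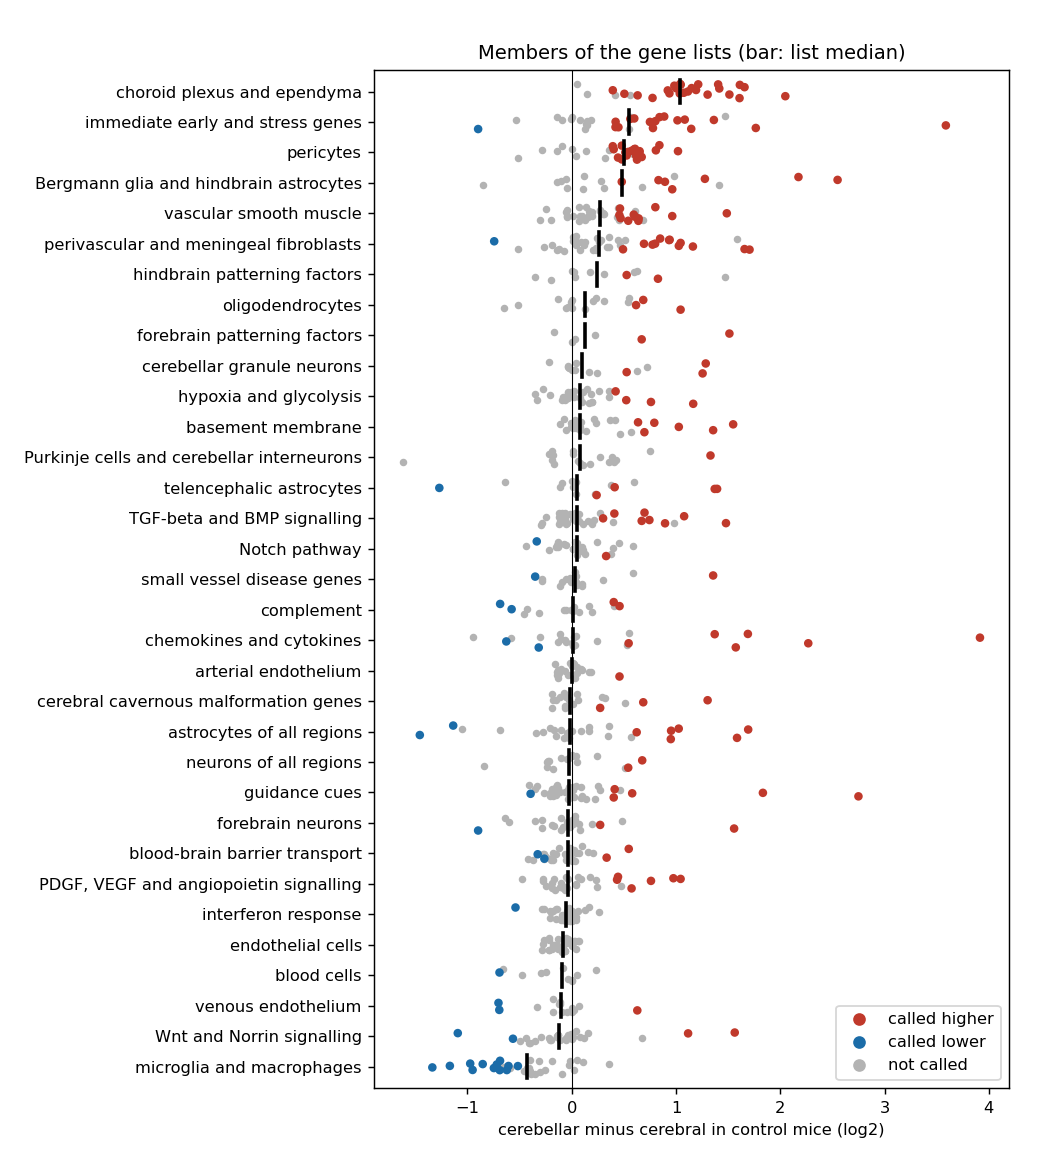
Cerebellar minus cerebral difference in control mice (log2) of each tested member of the gene lists, ordered by list median (black bar); red points were called higher, blue points lower and grey points were not called. The choroid plexus and ependyma list is furthest right with a median of 1.04, microglia and macrophages furthest left with -0.43, and the endothelial list lies close to 0.

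Choroid plexus transcripts were higher in cerebellar vessels as well. The choroid plexus is the secretory epithelium of the ventricles, and of 28 of its genes and those of ependyma 24 rose (85.7%, beside 5.52% of all genes), 0 fell and the median was 1.04. The bicarbonate transporter Slc4a5 was at 8.69, 8.68 and 8.11 in cerebral and at 10.16, 10.89 and 10.57 in cerebellar arrays (2.05, SE 0.22, adjusted p = 0.00494 in limma). The potassium channel subunit Kcne2 was at 10.34, 10.51 and 10.18 and then at 11.53, 12.17 and 12.17 (1.61, SE 0.16, adjusted p = 0.00356 in limma). The tight junction protein Cldn1 rose by 1.61 and the carrier Igfbp2 by 1.66. Transthyretin (Ttr), the main product of the epithelium, was at 16.07 to 16.08 in cerebrum and at 16.21 to 16.24 in cerebellum, near the top of the scale, and was not called (0.14, adjusted p = 0.200 in limma).

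The mean level of the 28 genes was 9.31, 9.45 and 9.03 in the cerebral arrays of mice 1, 2 and 3 and 9.98, 10.50 and 10.39 in their cerebellar arrays. The gap was 0.67, 1.05 and 1.36 in mice 1, 2 and 3, while the pericyte gap was 0.34, 0.40 and 0.48 and the smooth muscle gap was 0.25, 0.14 and 0.56. In knockout mice 1, 2 and 3 the choroid plexus gap was 0.97, 0.83 and 1.23, the pericyte gap 0.58, 0.59 and 0.45 and the smooth muscle gap 0.28, 0.39 and 0.12. The order of the mice in these gaps was not tested. The number of choroid plexus and ependyma genes called was 23 without control mouse 1 and 8 without mouse 2 or without mouse 3. It was 7 without the pairing. The part of choroid plexus tissue in the pericyte, smooth muscle, fibroblast, matrix and signalling results was not tested. Several named genes stand in both lists: Igfbp2 and Igf2 are also fibroblast genes here, Rarres2 a pericyte gene and Aqp1 a cavernous malformation gene.

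**Figure D3:**
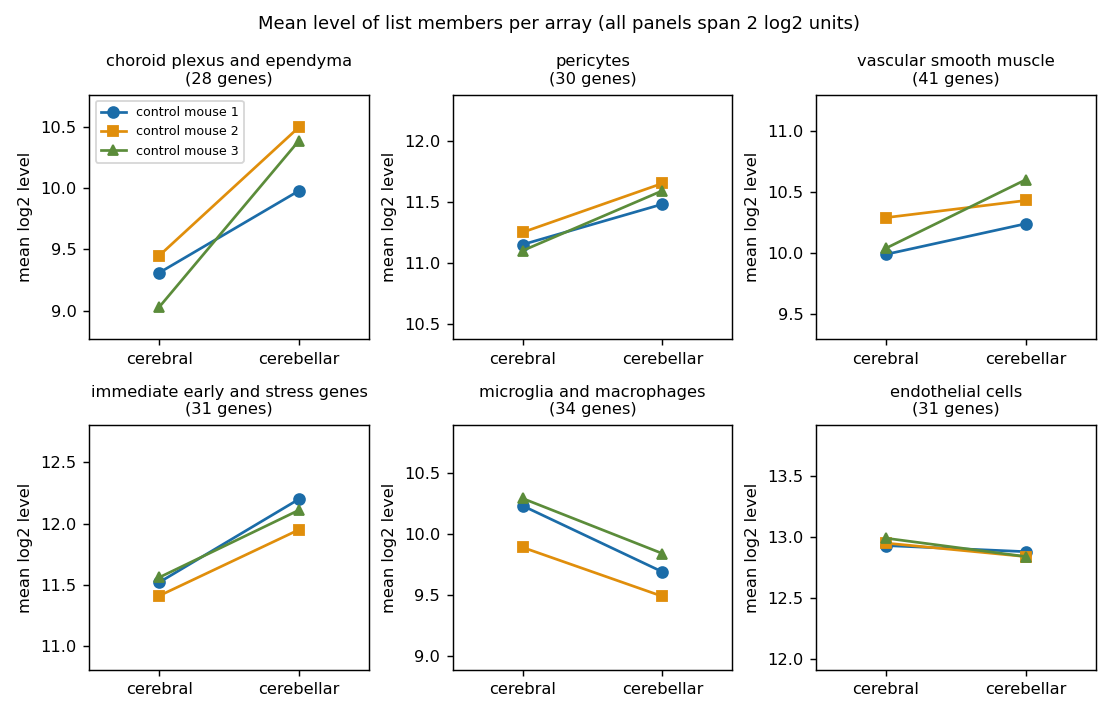
Mean log2 level of the members of 6 gene lists in each control array; lines join the cerebral and cerebellar arrays of 1 mouse, and each panel spans 2 log2 units. The choroid plexus, pericyte and immediate early means rise in each of the 3 mice, the microglial mean falls in each, and the endothelial mean falls by 0.05, 0.11 and 0.15.

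Microglial transcripts were lower in cerebellar vessels. Of 34 genes of microglia and macrophages tested, 12 fell (35.3%, beside 2.29% of all genes) and 0 rose, and the median was -0.43. Fcrls, an Fc receptor-like protein of microglia, was at 13.25, 12.59 and 13.24 in cerebral and at 12.09, 11.33 and 12.16 in cerebellar arrays (-1.17, SE 0.06, adjusted p = 0.0012 in limma). The purinergic receptor P2ry12 was at 12.53, 12.20 and 12.66 and then at 11.27, 11.61 and 11.59 (-0.97, SE 0.14, adjusted p = 0.0106 in limma). Siglech, named above, was at 9.37, 8.85 and 9.61 and then at 8.05, 7.84 and 7.93. These 3 genes did not overlap between regions, which for Siglech was a condition of its choice above. The related receptors P2ry13 and Gpr34 fell by 0.95 and 0.85 and the fractalkine receptor Cx3cr1 by 0.61. Without mouse 3 the calls of P2ry12, P2ry13, Gpr34 and Cx3cr1 were lost (adjusted p = 0.0759, 0.0562, 0.0738 and 0.0665 in limma), and that of Gpr34 also without mouse 1 (0.0768) and mouse 2 (0.0741). The mean over the list fell by 0.54, 0.40 and 0.45 in mice 1, 2 and 3. The number of genes called lower was 5, 7 and 2 without mice 1, 2 and 3 and 1 without the pairing. Among markers of macrophages at vessels and meninges, 3 that were not called were picked after their values were seen. The mannose receptor Mrc1 differed by 0.11, Cd163 by 0.02 and Lyve1 by -0.40, the last near the list median of -0.43. Other such markers on the list are not given here, and 30 of the 34 list members had a negative difference. Of 11 blood cell genes, Lcn2 alone was called (9.09%, beside 2.29% of all genes called lower). Haemoglobin Hba-a1 was at 3.32 to 3.35 in all 6 arrays, near the median of the table (3.27). The haemoglobin genes Hbb-b1, Hbb-bs and Hbb-bt had no probe set naming 1 gene and were not read.

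Immediate early genes, which cells transcribe within minutes of a stimulus, were higher in cerebellar arrays. Of 31 such genes and stress genes, 16 rose (51.6%, beside 5.52% of all genes) and 1 fell (3.23%, beside 2.29%), with a median of 0.55. The AP-1 subunit Junb was at 9.09, 9.41 and 9.06 in cerebral and at 11.00, 10.91 and 10.94 in cerebellar arrays (1.76, SE 0.14, adjusted p = 0.00205 in limma). The zinc finger factor Egr1 was at 11.54, 11.52 and 11.92 and then at 13.01, 12.91 and 13.15 (1.36, SE 0.11, adjusted p = 0.00208 in limma). Zfp36, which degrades cytokine mRNA, rose by 1.08 and the heat shock protein Hspa1a by 1.15. All 4 genes were free of overlap between regions. Egr3, of the same family as Egr1, went the other way: it was at 11.49, 10.39 and 12.06 and fell to 10.65, 9.66 and 10.94 (-0.90, SE 0.09, adjusted p = 0.00365 in limma). The mean over the list rose by 0.68, 0.54 and 0.55 in the 3 mice, and 12 genes were called higher with any 1 of them left out; Hspa1a was not called without mouse 3 (adjusted p = 0.0615 in limma).

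Chemokines and cytokines had 6 genes up of 24 (25%, beside 5.52% of all genes) and 2 down (8.33%, beside 2.29%), with a median of 0.01. Without control mice 1, 2 and 3 the counts were 6, 5 and 4 up and 0, 0 and 1 down. The neutrophil chemokine Cxcl1, a neighbour of Cxcl2 on the chromosome, was at 8.50, 7.54 and 8.24 and then at 10.10, 9.21 and 9.68 (1.57, SE 0.13, adjusted p = 0.00208 in limma). The inflammatory cytokine Il1b was at 4.44, 4.68 and 5.67 and then at 6.61, 5.76 and 7.48 (1.69, SE 0.21, adjusted p = 0.00647 in limma, or 0.0544 without mouse 3). Il33, an alarmin of astrocytes and oligodendrocytes, rose by 1.37. Of 34 interferon response genes 0 rose in limma and 1 fell (2.94%, beside 2.29% of all genes). It was Isg20, by 0.54 (lost without mouse 2 and without mouse 3, adjusted p = 0.113 and 0.146 in limma). An unadjusted p under 0.05 in limma was found for 6 of the 34, beside 2741 of all 11716 genes. Of 16 complement genes 2 rose (12.5%, beside 5.52% of all genes) and 2 fell (12.5%, beside 2.29%). Those that rose were Cd55, which protects cells from complement (0.46, adjusted p = 0.0398 in limma), and vitronectin (Vtn, 0.40, adjusted p = 0.00692 in limma), also on the pericyte list. Those that fell were the anaphylatoxin receptor C3ar1 (-0.69, adjusted p = 0.0417 in limma) and complement factor B (Cfb, -0.58, adjusted p = 0.0413 in limma). Without control mice 1, 2 and 3 the complement genes called higher numbered 1 each time, and those called lower 1, 0 and 0.

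Cxcl1 and Cxcl2 rose together, and their promoters are shown because both hold the same run of bases that matches a binding motif of NF-kappaB, the transcription factor of inflammatory signals. Each sequence covers 150 bases before the gene's start on the plus strand, from RefSeq (GRCm38.p6), at chr5:90903749-90903898 for Cxcl2 and chr5:90891095-90891244 for Cxcl1, with the run in capitals.
Cxcl2: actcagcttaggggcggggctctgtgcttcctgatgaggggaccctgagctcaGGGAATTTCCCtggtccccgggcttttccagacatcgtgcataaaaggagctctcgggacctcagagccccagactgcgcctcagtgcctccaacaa
Cxcl1: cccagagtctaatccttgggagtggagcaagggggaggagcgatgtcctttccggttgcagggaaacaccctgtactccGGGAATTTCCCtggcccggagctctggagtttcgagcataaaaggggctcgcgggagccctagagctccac
The run lies 97 to 87 bases before the start of Cxcl2 and 71 to 61 bases before that of Cxcl1. The NF-kappaB motif was searched on both strands of windows from 250 bases before to 50 bases after the start. It was found in 2 of 6 promoters of the called chemokine and cytokine genes, which covered 5 of the 6 genes, and in 4.5% of 32851 promoters. In 15 promoters of 14 called immediate early genes, the cAMP response element TGACGTCA was found in 2 (Btg2 and Dusp1) and the CArG box of serum response factor in 1 (Zfp36), beside 1.79% and 1.63% of all promoters. These matches are a description of letters in the sequence.

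Genes of neurons and glia around the vessels differed by region in part. Among 14 genes of cerebellar granule neurons 3 rose (21.4%, beside 5.52% of all genes), and 3, 3 and 2 did without control mice 1, 2 and 3. The receptor subunit Gabra6 was at 3.81, 3.82 and 3.79 in cerebral and at 4.88, 5.38 and 4.93 in cerebellar arrays (1.26, SE 0.10, adjusted p = 0.00205 in limma), and Neurod1, a transcription factor of granule cells, rose by 1.28, which was not called without mouse 3 (0.0564). Of 19 genes of Purkinje cells and interneurons, Ebf2 alone was called, a share of 5.26% beside 5.52% of all genes called higher. Its rise was 1.32 (adjusted p = 0.0012 in limma), given as at least 1.36-fold because its 3 cerebral values were under 3.27. Ebf2 passed the filter only through its 3 control cerebellar arrays, where it is high, so its call is not independent of that group. The knockout arrays, which share in its SE, were all under 3.27 as well. Parvalbumin (Pvalb) was at 2.25 to 2.50 in cerebrum and at 2.62 to 3.43 in cerebellum and was not called (adjusted p = 0.0721 in limma). Among 23 forebrain neuron genes 2 rose (8.7%, beside 5.52% of all genes) and 1 fell (4.35%, beside 2.29%). The gene that fell was Egr3, which is also on the immediate early list above. The number that rose was 1, 0 and 0 without control mice 1, 2 and 3. The rise of the striatal phosphoprotein Ppp1r1b (1.56, from 7.61, 7.50 and 7.42 to 8.63, 9.29 and 9.27) ran opposite to the list's name, and it was not called without mouse 2 (adjusted p = 0.0577 in limma) or mouse 3 (0.0742). Of 17 genes of neurons of all regions 2 rose (11.8%, beside 5.52% of all genes) and 0 fell, with a median of -0.03. With any 1 control mouse left out, 0 of them rose. On that list, Snap25 was at 6.21, 6.21 and 8.08 and then at 7.06, 7.10 and 7.08 (0.25, adjusted p = 0.774 in limma), and its highest level was in the cerebral array of mouse 3.

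Bergmann glia and hindbrain astrocytes had 7 of 19 genes up (36.8%, beside 5.52% of all genes) and 0 down, with a median of 0.48, and 5, 5 and 4 up without control mice 1, 2 and 3 (and 1 down without mouse 1). Beside A2m and Gria4, the receptor subunit Gria1 rose by 1.28, the protease inhibitor Timp4 by 0.96 and the homeodomain protein Hopx by 0.89; the call of Gria1 was lost with any 1 control mouse left out and that of Timp4 without mouse 3 (adjusted p = 0.0892 in limma). Hopx was at 9.35, 9.22 and 9.34 and then at 10.11, 10.24 and 10.24 (SE 0.10, adjusted p = 0.00514 in limma), with close agreement among mice. Of 27 genes of astrocytes in general, 6 rose (22.2%, beside 5.52% of all genes) and 2 fell (7.41%, beside 2.29%). Without control mice 1, 2 and 3 the higher ones numbered 2, 2 and 4 and the lower ones 4, 1 and 1. The end-foot water channel Aqp4 was at 8.91, 8.84 and 9.68 and then at 11.05, 10.57 and 10.56 (1.59, SE 0.28, adjusted p = 0.0201 in limma), a call that was lost without control mouse 1 (adjusted p = 0.0802 in limma) and without mouse 2 (0.0912). Aldh1l1, a folate enzyme that marks astrocytes, was at 5.73, 5.71 and 5.55 and then at 7.12, 7.56 and 7.39 (1.69, SE 0.15, adjusted p = 0.00269 in limma). The matrix protein Ncan and the thyroid hormone enzyme Dio2 were the 2 that fell, Dio2 by 1.14, which was not called without mouse 2 (adjusted p = 0.145 in limma) or mouse 3 (0.154). Of 15 telencephalic astrocyte genes 4 rose (26.7%, beside 5.52% of all genes) and 1 fell (6.67%, beside 2.29%). The number that rose was 2, 2 and 3 without control mice 1, 2 and 3. Of 17 oligodendrocyte genes 3 rose (17.6%, beside 5.52% of all genes), or 1 with any 1 control mouse left out. Cspg4 and Pdgfra were among the 3, which are also mural and fibroblast genes.

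Transcription factors that pattern the hindbrain were mostly below the filter: 12 of 42 were tested, and 2 rose (16.7%, beside 5.52% of all genes). Zic1 was at 12.92, 12.88 and 12.59 in cerebral and at 13.36, 13.37 and 13.24 in cerebellar arrays (0.53, SE 0.06, adjusted p = 0.00514 in limma), and it stands on the pericyte list too. Meis1 rose by 0.83, a call that was lost with any 1 control mouse left out. Of 38 forebrain factors 6 were tested and 2 rose (33.3%, beside 5.52% of all genes). They were Otx2, which is also a choroid plexus gene, from 9.60, 9.82 and 9.30 to 10.61, 11.37 and 11.28 (1.51, SE 0.16, adjusted p = 0.00466 in limma), and the HLH inhibitor Id4 by 0.67. Of 31 hypoxia and glycolysis genes 4 rose (12.9%, beside 5.52% of all genes), with carbonic anhydrase Car12 (1.16) highest. The count was 2, 1 and 1 without control mice 1, 2 and 3.

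The same region difference was measured in the 3 Notch3 knockout mice, which share no array with the control comparison but share the fit's estimate of spread. There 1723 genes were called (14.7%), 996 higher (8.5%) and 727 lower (6.21%). Of the 647 genes called higher in control mice 639 had the same sign in knockout mice and 528 were called higher (81.6%). Of the 268 called lower, 251 had the same sign and 132 were called lower (49.3%). All 15 of the highest genes were called again, and 10 of the 15 lowest. Cxcl2 differed by 4.25, Fosb by 2.23, Dlk1 by 4.80 and Ddn by -4.79 in knockout mice. Alx1 (-0.23, adjusted p = 0.737 in limma) and Nnat (-0.05, adjusted p = 0.953 in limma) were not called there. By list, 22 of 30 pericyte genes, 23 of 28 choroid plexus genes and 18 of 31 immediate early genes were called higher in knockout mice, 26 of 34 microglial genes were called lower, and 0 of 31 endothelial genes were called. Fcrls differed by -1.52, P2ry12 by -1.74, Abcc9 by 0.89 and Junb by 1.40.

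**Figure D4:**
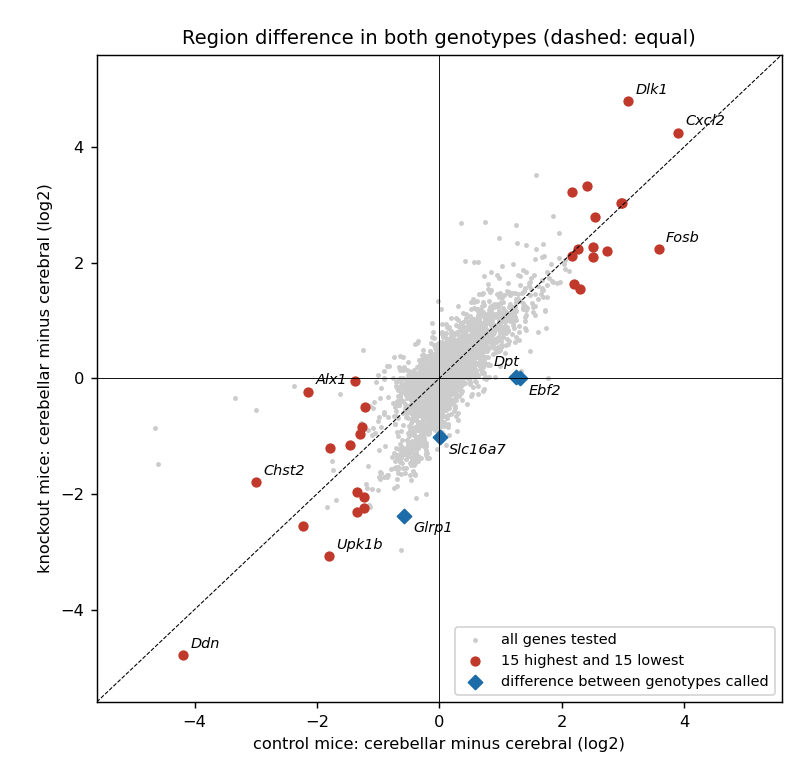
Cerebellar minus cerebral difference (log2) in control mice on the x axis and in Notch3 knockout mice on the y axis for each gene tested; red points are the 15 highest and 15 lowest genes of the control comparison and diamonds the 4 genes whose region difference differed between genotypes. The 15 highest genes lie above 0 on both axes, and Alx1 lies close to 0 in knockout mice.

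The difference between the genotypes in this region effect was tested gene by gene. It was called for 4 of 11716 genes (0.0341%), with 1214 (10.4%) at an unadjusted p under 0.05. Of the genes named above, Ebf2 was 1 of the 4: it was at 2.50, 2.34 and 2.31 in cerebral and at 4.02, 3.59 and 3.52 in cerebellar arrays of control mice and at 2.30 to 2.34 in all 6 knockout arrays. For the other genes named above, a larger or smaller difference in knockout mice was not shown to differ from that in control mice.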

How the data were processed

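The authors deposited log2 values for each probe set, which GCRMA 2.32.0 produced per the submitters' processing notes; they were used without rescaling, and no detection calls were used. GCRMA evens out distributions between arrays, so a shift common to most genes would not show. Of 45101 probe sets, 34945 named 1 gene, 932 several and 9160 none, and 64 were control probe sets. Probe sets with at least 3 of 12 arrays over 3.27 were kept, and the one with the highest mean stood for its gene, which left 11716 genes. Arrays give no read depth; their number limits precision.

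Tests used limma 3.58.1 in R 4.3.3 (lmFit, eBayes, two-sided), with all 12 arrays, the mouse as a block and 4 residual degrees of freedom, and were tested on simulated data. The pairing comes from the replicate numbers in the labels. Deviations of same-numbered arrays correlated at 0.371, 0.495 and 0.547 in control and at 0.573 to 0.705 in knockout mice. No correlations of differently numbered arrays were set beside these, so they do not show that a number marks a mouse. "At least" folds set the dim region to 3.27 where at least 2 of its 3 arrays were at or under that value.

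Members and gene lists were chosen with earlier results of these data known. Named genes were the 15 highest and 15 lowest called without overlap (clone names skipped), up to 5 members of each list, called members of the Wnt and patterning lists, and a set of cell type anchors. Alternatives varied the filter, probe set choice, scaling, eBayes settings, array weights, block and arrays.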

Additional observations from a re-analysis of the deposited data

Results flagged for a closer look

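The region difference differed between control and knockout mice, by a test of the difference itself in limma, in 4 genes; 3 of them (Dpt, Glrp1 and Slc16a7) are named because of this test. Dermatopontin (Dpt), a matrix protein of fibroblasts, was at 2.37 to 2.41 in cerebral and at 3.63 to 3.66 in cerebellar arrays of control mice and at 2.39 to 2.44 in all knockout arrays, a difference of -1.23 between genotypes (SE 0.07, adjusted p = 0.00667). Ebf2 differed by -1.32 (SE 0.10, adjusted p = 0.023). Glrp1, a glutamine-repeat protein, fell by 0.57 in control and by 2.38 in knockout mice, a difference of -1.81 (SE 0.14, adjusted p = 0.023); its knockout cerebral arrays were at 7.29 to 7.39 and the control ones at 4.35 to 4.73. The monocarboxylate transporter Slc16a7 differed by 0.01 in control and by -1.02 in knockout mice, a difference of -1.03 (SE 0.09, adjusted p = 0.0279). The 12 values of Dpt lie between 2.37 and 3.66 and those of Ebf2 between 2.30 and 4.02, near 3.27, the median of the table. Both genes passed the filter only through the control cerebellar arrays, the group in which they are high. Their calls are thus not independent of that group, and their SE rests largely on values under 3.27. None of the 4 was called when control mouse 3 or any 1 of the knockout mice was left out.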

How the results depend on the processing

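All 124 called genes among the 186 named kept their direction under each alternative run that tested them. Of these, 36 were called in each run that tested them. The filter at the upper quartile (8.45) left out dim genes, Ebf2 among them, and a gene left out of a run was not counted against it. Without a filter on low values 603 genes were called instead of 915, without the replicate block (the pairing by mouse) 268, with only the 6 control arrays 455 with the block and 213 without it. Leaving out 1 mouse gave 333 to 784. Of the 268 genes called without the block, 264 were also called with it. In knockout mice the 1723 calls became 797 without the block and 848 to 1681 with 1 mouse left out. The 4 genes whose region difference differed between genotypes became 1 without a filter, 7 with the mouse as a random block and 0 to 3 with 1 mouse left out. With the filter at the upper quartile, which left out Dpt and Ebf2, the number was 0. Part of the loss without a mouse or with 6 arrays comes with fewer residual degrees of freedom; the cause of the other shifts was not tested. Transcripts near 3.27 have only bounds on their folds.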

Other observations

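Pituitary transcripts beyond those above were read in all 12 arrays after Gh and Cga were seen. The follicle-stimulating hormone subunit Fshb was at 7.20 in the cerebral array of control mouse 3 and at 2.09 to 2.12 in the other 11 arrays. Pomc, the precursor of corticotropin, was at 12.47 in that array and at 9.50 to 10.46 in the others. The thyrotropin subunit Tshb was at 4.09 in that array and at 3.32 to 3.45 in the others. Lhb and Pitx1 were no higher there, and both were under the median of the table in all 12 arrays. Knockout mouse 2 had Chga at 6.42 and Cga at 3.61 in its cerebral array, while Gh was at 2.70 there.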
